A study of Mus musculus with 9 samples.

Results

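Long intergenic non-coding RNAs (lincRNAs) were examined in primary mouse macrophages grown from bone marrow and cultured for 48 h on implant metals. The genes were chosen by their FPKM values: the deposited table had to give the biotype lincRNA, and 3 or more of the 9 libraries had to reach 1 FPKM. FPKM counts sequenced fragments per 1000 bases of a gene model after scaling for the library. By this rule 152 of the 5559 lincRNA genes were expressed (2.73%), among 54532 genes in all. The levels themselves chose these genes, so that they are expressed is a description and not a finding. The materials were cp titanium (cpTi), the metallic glass Zr61Cu25Al14 without tantalum (Ta0) and the metallic glass Zr58Cu25Al14Ta3 with tantalum (Ta3). In a metallic glass the atoms of the alloy have no crystalline order. All cells were labelled wild type, each material had 3 libraries, and macrophages on plain culture plastic were not among the samples. The labels also call the tissue a xenograft, and the age and sex of the animals and any pooling of them are not given in the sources used here. The labels do not tie the libraries of a material to separate cultures or mice. The p-values therefore measure only how these libraries vary, which may be technical. Columns were assigned to the glasses by composition, and a reversed reading would swap Ta0 and Ta3.

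LincRNAs are spliced or unspliced transcripts that lie between protein coding genes and are not known to encode a protein. Some act in the nucleus, where Malat1 gathers in nuclear speckles and Neat1 builds the paraspeckle. Others carry small nucleolar RNAs or microRNAs in their introns or exons, and in macrophages some have been studied as regulators of survival, cholesterol efflux and the response to bacterial products. Most mouse lincRNA models have no assigned function.

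The labelled cell type was checked first: all 9 macrophage markers were expressed, with a summed level of 11080 to 40440 FPKM per library, led by Lyz2. The neutrophil markers summed to 10.4 to 388 FPKM, led by S100a8, with Ly6g at 0 in all 9 libraries. Fibroblast markers summed to 27.6 to 49.9 FPKM, and dendritic cell markers to 0.228 to 0.637 FPKM. Reads rebuilt from the FPKM came to between 15517877 and 18689963 per library, of which the 152 lincRNAs took 0.155% to 0.304%. Libraries of one material stood apart from each other. Genes for ribosomal proteins held 18.0% of all reads for Ta0 replicate 1 and 16.5% for Ta3 replicate 3. Their share was lowest, at 2.16%, in Ta3 replicate 2, and cpTi replicate 3 followed with 3.54%. Going by the rebuilt reads, FPKM were scaled to 9078170 reads in Ta0 replicate 1 and 9775250 in Ta3 replicate 3. In the other libraries the scale was 16342300 to 21911100 reads, so that a read there counted for less FPKM. In Ta3 replicate 3, 26 of the 152 lincRNAs were listed at 0, against 0 to 2 in every other library. Zeros in that library were not limited to lincRNAs. Of all genes 13466 had reads in it, against 15678 to 20635 in the others. Of all lincRNA genes 266 did, against 510 to 877.

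The expressed lincRNAs were few and low compared with protein coding genes. By the same level rule, 9571 protein coding genes passed (43.4%). The median of the lincRNAs' own median levels was 1.796 FPKM, against 6.11 FPKM for those protein coding genes. Of the 152 lincRNAs, 19 had a median of at least 10 FPKM, 14 lay between 5 and 10, 33 between 2 and 5, and 86 below 2. In all 9 libraries 61 reached 1 FPKM, while 16 did so in exactly 3 libraries. Among the other lincRNA genes, 4127 had no read in any library and 1280 had reads but did not pass.

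The gene models were short. Their median length was 1191 bases, from 254 to 20771, against 4206 for protein coding genes that passed. Models with a clone or accession style of name made up 131 of the 152. RefSeq held 113 of the 152, 103 as long non-coding RNAs and 8 as protein coding genes. Among the latter was 1810058I24Rik, also listed as Stmp1, which is known to encode a short mitochondrial protein. Near protein coding genes the layout varied. The nearest coding gene was divergent from 46 lincRNAs, downstream on the same strand of 37, convergent with 31 and upstream on the same strand of 23. In 11 cases it overlapped on the opposite strand and in 4 on the same strand, and 27 divergent pairs had starts within 1000 bases. The library kit does not mark strand and the strand setting is not given, so reads of overlapping genes cannot be told apart. Of the 152, 63 overlapped another gene and 23 an expressed one.

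The highest median levels belonged to Gm10076 and Snhg6, at 158 and 57.2 FPKM. After them came 1810058I24Rik at 54.6, Gm26917 at 49.1, Epb41l4aos at 48.6, AW112010 at 46.1 and AU022793 at 40.9 FPKM. The list of 12 closed with 2900097C17Rik at 29.2, Mir142hg at 22.7, Gm36161 at 22.3, Gm20703 at 21.1 and Neat1 at 18.99 FPKM. The ranges within a material were wide for most of these genes. AU022793, a model on chromosome 15 whose nearest coding gene is Lrp12, varied least, from 26.8 to 62.0 FPKM over the 9 libraries. Gm10076 varied most, from 19.8 to 2717 FPKM.

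**Figure D1:**
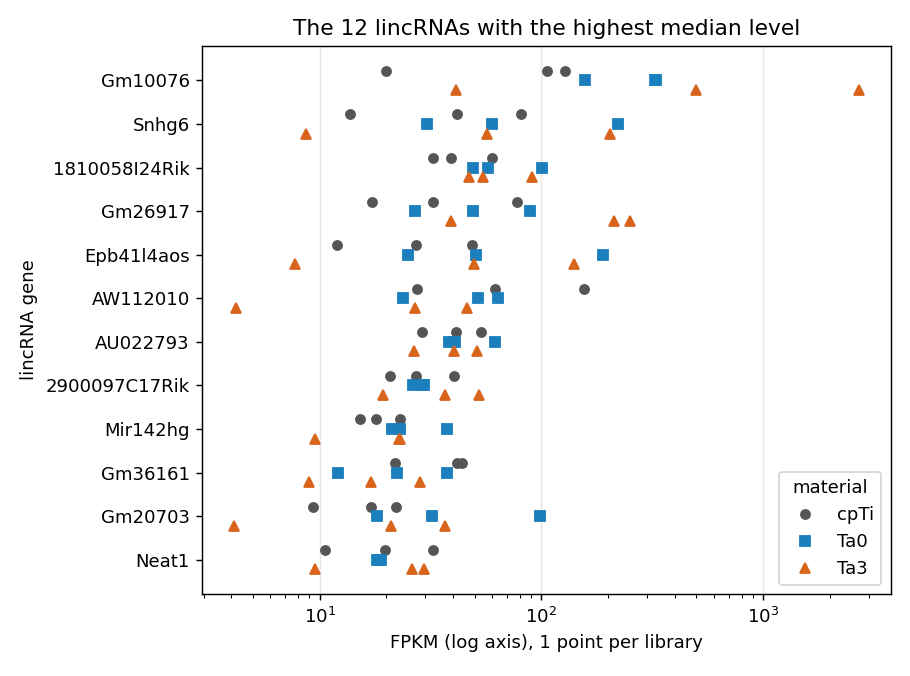
FPKM (log axis) of the 12 lincRNAs with the highest median level, 1 point per library, with cpTi as circles, Ta0 as squares and Ta3 as triangles. The symbols of the materials overlap for most genes, and Gm10076 spans from 19.8 to 2717 FPKM.

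Hosts of small RNAs from a fixed list make up 7 of the 152. Some members outside that list also overlap microRNA genes, such as Gm26532 with Mir24-2, and were not counted. The cell cuts small nucleolar RNAs out of the introns of Snhg genes. The list named 31 host transcripts, of which 16 passed the level rule and 7 were lincRNAs: Snhg6, Snhg10, Snhg12, Snhg18, Snhg20, Epb41l4aos and Mir142hg. Snhg6, on chromosome 1, gave 41.9, 80.7 and 13.7 FPKM on cpTi, 221, 30.6 and 60.0 on Ta0 and 57.2, 8.70 and 204 on Ta3. Its high libraries were Ta0 replicate 1 and Ta3 replicate 3, the same libraries in which ribosomal protein genes took most reads, and its low ones Ta3 replicate 2 and cpTi replicate 3, where they took least. Epb41l4aos, a host of a small nucleolar RNA, had the same high and low libraries, with 27.1, 48.6 and 11.99 FPKM on cpTi, 190, 25.1 and 50.8 on Ta0 and 49.95, 7.76 and 141 on Ta3.

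Snhg20 ran from 2.37 to 11.2 FPKM, Snhg12 from 2.41 to 6.51, Snhg10 from 1.04 to 8.33 and Snhg18 from 0.450 to 3.41. Each of these 4 was highest in Ta0 replicate 1. On Ta0 against cpTi, 15 of the 16 hosts lay above 0 with a median log2 fold change of 0.63, against -0.00 over all tested genes, and limma called none of them. On Ta3 the median was 0.02, and 9 of 16 lay above 0. When every library was set to a common FPKM total, 10 of 16 lay above 0 on Ta0 and the median was 0.13, beside a median of -0.48 over all genes. Between the glasses 0 of 16 lay above 0, with a median of -0.52. At a common total 5 of 16 did, beside 80.4% of all genes, and 0 of 16 lay above the median of all genes. The 11 proteins that package small nucleolar RNAs had a median log2 fold change of 0.33 on Ta0, with 10 above 0, and none was called. At a common total 3 of the 11 lay above 0, beside 17.1% of all genes, and 9 lay above the median of all genes. Of the 12 listed factors of nonsense-mediated decay, which degrades spliced Snhg transcripts, none was called, with medians of -0.21 on Ta0 and 0.03 on Ta3. The part of ribosomal protein reads in the hosts' values was not tested.

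Mir142hg, the host of the microRNAs of the miR-142 family that blood cells make, moved differently between libraries. It gave 15.1, 18.0 and 23.1 FPKM on cpTi, 37.7, 21.2 and 23.0 on Ta0 and 22.7, 23.1 and 9.51 on Ta3. The groups overlapped in each comparison, with log2 fold changes of 0.49 on Ta0 and -0.10 on Ta3, and the smallest adjusted p by limma was 0.750. Its mature products, of which the table measures only the host, are shown with their seeds, bases 2 to 8, in capitals. They were read from RefSeq (GRCm38.p6), where they lie at chr11:87756867-87756887 and chr11:87756903-87756925 on the plus strand.
mmu-miR-142a-5p: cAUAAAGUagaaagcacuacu
mmu-miR-142a-3p: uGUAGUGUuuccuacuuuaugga

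**Figure D2:**
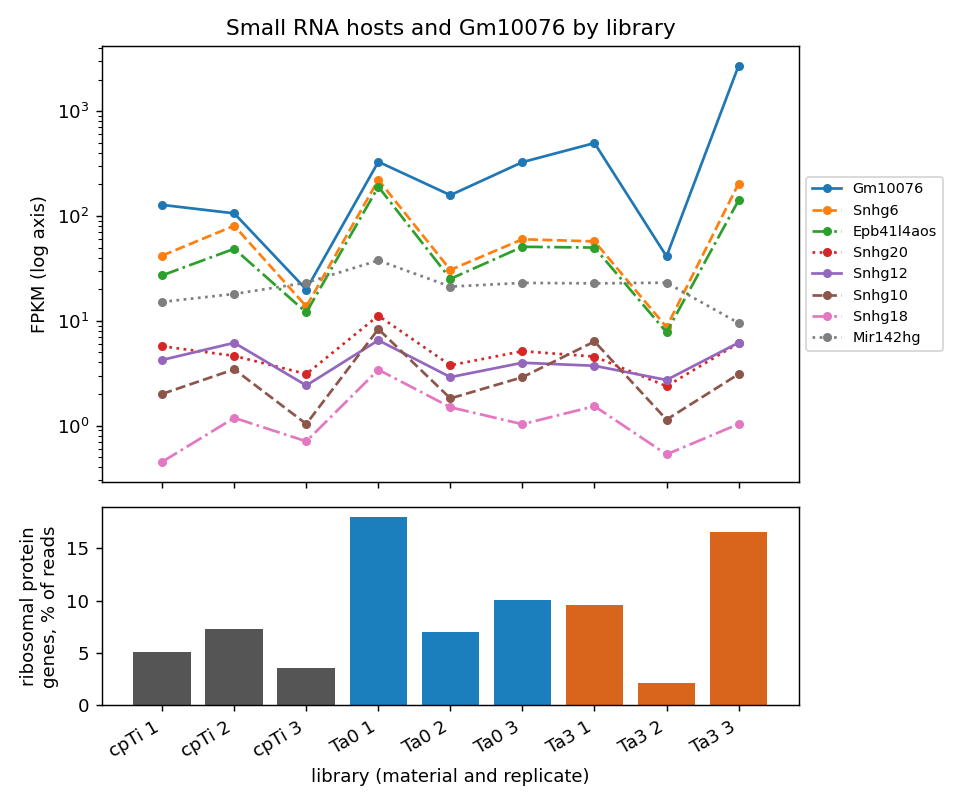
Upper panel, FPKM (log axis) of 7 small RNA hosts and Gm10076 in each library; lines only link the values of one gene. Lower panel, percent of reads in ribosomal protein genes, coloured by material. Snhg6 and Epb41l4aos peak in Ta0 replicate 1 and Ta3 replicate 3, the libraries with 18.0% and 16.5% of such reads.

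Gm10076, the top lincRNA, is a near copy of a ribosomal protein gene. RefSeq lists it as a pseudogene (chr14:105681828-105682211, plus strand, GRCm38). It shares 82.2% of its 31-base words with Rpl41, which encodes a very small protein of the large ribosomal subunit. Bases 42 to 119 of its transcript equal all 78 bases of the Rpl41 coding sequence, with 0 differences. That run is shown because reads within it cannot be assigned to either gene.
Gm10076, bases 42 to 119: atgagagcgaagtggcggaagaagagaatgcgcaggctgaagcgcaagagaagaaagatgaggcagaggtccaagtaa
Gm10076 gave 128, 106 and 19.8 FPKM on cpTi, 329, 158 and 327 on Ta0 and 497, 41.2 and 2717 on Ta3. The Ta0 libraries all lay above the cpTi libraries, and Ta3 replicate 3 lay far above all others. Rpl41 itself gave 1070, 2299 and 684 FPKM on cpTi, 13792, 1950 and 3737 on Ta0 and 3501, 293 and 14708 on Ta3. The log2 fold change of Gm10076 was 1.97 on Ta0 (adjusted p = 0.750) and 2.55 on Ta3 (adjusted p = 0.790) by limma. In Ta3 replicate 3 this gene alone made up 67.7% of the summed FPKM of all 152 lincRNAs, and in the other libraries 2.93% to 32.2%. Its level and that of Rpl41 were not separable here.

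In all, 7 lincRNAs shared at least 50% of their 31-base words with another gene, and 67 shared none. The others were Gm28901 with Hnrnpf, Gm26964 with A530017D24Rik, Gm36161 with Gm21188, Gm47467 with Zfp825, Gm42031 with Gm43305 and Gm44899 with Gm18782. Their levels depend on how the authors treated shared reads and are uncertain.

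The nuclear transcripts Neat1 and Malat1 were both above 7 FPKM in every library. Neat1 (chr19:5824708-5845478, minus strand) has the longest model of the 152, 20771 bases in a single block. It gave 19.8, 10.6 and 32.5 FPKM on cpTi, 18.99, 18.1 and 18.5 on Ta0 and 26.0, 29.7 and 9.54 on Ta3. Malat1, next to it on the same chromosome with 6983 bases, gave 15.3, 9.46 and 46.6 FPKM on cpTi, 23.4, 17.3 and 18.3 on Ta0 and 43.9, 28.4 and 7.75 on Ta3. Both were highest in cpTi replicate 3 and lowest in Ta3 replicate 3, where Snhg6 had its lowest levels in Ta3 replicate 2 and cpTi replicate 3. Of the 15 listed proteins of paraspeckles and nuclear speckles, all tested, none was called, and the median log2 fold change was -0.02 on Ta0 and 0.04 on Ta3.

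2900097C17Rik overlaps the RefSeq gene Norad, a transcript that binds Pumilio proteins. It gave 27.3, 20.7 and 40.3 FPKM on cpTi, 26.4, 29.5 and 29.2 on Ta0 and 36.9, 52.1 and 19.4 on Ta3. H19, an imprinted transcript, was low, between 0.961 and 2.12 FPKM. None of these 4 was called in any comparison, and each log2 fold change against cpTi lay between -0.25 and 0.23, with adjusted p of at least 0.750 by limma. Of the 20 listed transcripts of this kind 8 were tested and none was called.

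The list of transcripts studied in macrophages and inflammation named 28, of which 8 were tested and 4 were among the 152. AW112010, a macrophage transcript in mice that is also translated from a non-standard start, gave 61.7, 156 and 27.5 FPKM on cpTi. On Ta0 it gave 63.5, 23.8 and 51.6 FPKM, and on Ta3 26.8, 4.21 and 46.1. The cpTi libraries overlapped with those of both glasses, and its log2 fold change was -0.58 for Ta0 (adjusted p = 0.813, limma) and -1.79 for Ta3 (adjusted p = 0.759). With a covariate for each library's length slope, the slope of its deviations on log2 model length, these were -1.71 (adjusted p = 0.0185) and -2.11 (adjusted p = 0.0029), and AW112010 was called. That slope came from the same expression values that were then tested. With it, unadjusted p was under 0.05 for 11.3% of all genes on Ta0 and 24.4% on Ta3, where the main fit had 5.5% and 6.99%. No other fit called AW112010. Gm14005, known as Morrbid, is a regulator of the life span of short-lived myeloid cells and lies 15772 bases from Bcl2l11, the cell death gene it acts on in mice. It gave 2.80, 5.45 and 1.22 FPKM on cpTi, 10.4, 1.99 and 3.79 on Ta0 and 3.02, 0.421 and 5.83 on Ta3. Bcl2l11 gave 4.82 ± 1.799, 4.47 ± 0.460 and 5.93 ± 3.13 FPKM (mean ± SD, n = 3) on cpTi, Ta0 and Ta3, and neither gene was called.

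Gm26917 lies on chromosome 17 next to a ribosomal RNA gene. It starts at chr17:39843013 and ends 12 bases from CT010467.1, which the file describes as related to 18s RNA and which gave 105 to 5908 FPKM. Gm26917 gave 32.4, 17.3 and 77.7 FPKM on cpTi, 88.6, 27.0 and 49.1 on Ta0 and 251, 213 and 39.2 on Ta3. The Ta3 replicates 1 and 2 were the highest, and replicate 3 fell within the range of the others (log2 fold change 1.83 on Ta3, adjusted p = 0.718, limma). The lincRNA models Gm42418 and AY036118, which lie within CT010467.1, were at 0 in all 9 libraries. Reads there cannot be told apart from those of CT010467.1, so these values do not show absence. The single called gene of the macrophage list, on Ta3 and over both glasses, was Gm12250, whose deposited biotype is processed pseudogene and not lincRNA. Its log2 fold changes were -1.56 ± 0.22 and -1.30 ± 0.19 (adjusted p = 0.0350 and 0.0248, limma).

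The comparison asked whether the macrophages' lincRNAs differed between the metals. Among all tested genes 0.424% were called on Ta0 against cpTi and 0.479% on Ta3, and none of the 152 lincRNAs was called in either. Over both glasses 0.728% of all genes were called, 0.663% as lower, and 1 of the 152 lincRNAs, Gm32089, was called lower. Between Ta3 and Ta0 no gene was called (0%). With p unadjusted, 11 lincRNAs passed 0.05 on Ta0, 11 on Ta3, 13 between the glasses and 9 over both. The shares were 7.24%, 7.24%, 8.55% and 5.92%, where all genes had 5.5%, 6.99%, 4.25% and 6.53%. These counts, and the shares over all genes, moved with single libraries. On Ta0 the count was 1 without Ta0 replicate 1 (0.658%, all genes 3.07%) and 24 without Ta3 replicate 3 (15.8%, all genes 10.1%). Between the glasses it was 5 (3.29%, all genes 2%) and 25 (16.4%, all genes 18.8%) without the same libraries. On Ta3 it was 5 (3.29%) without cpTi replicate 1 (all genes 3.79%) or cpTi replicate 2 (all genes 4.37%). Without Ta3 replicate 2 it was 24 (15.8%, all genes 10.7%). Over both glasses it was 4 without cpTi replicate 1 (2.63%, all genes 3.75%) and 27 without Ta3 replicate 2 (17.8%, all genes 13%). By limma-voom on the rebuilt reads 0 lincRNAs were called in each comparison. In bulk samples fewer cells of a type and less RNA per cell cannot be told apart.

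The median log2 fold change of the 152 on Ta0 was 0.24, with 109 above 0, beside -0.00 over all tested genes. It was 0.04 on Ta3, with 84 above 0, beside 0.02 over all genes. Between Ta3 and Ta0 it was -0.26, with 38 above 0, beside -0.04 over all genes. With the length slope as a covariate the Ta0 median was 0.04, with 81 above 0, and the median between the glasses was -0.05, with 66 above 0. Without Ta0 replicate 1 and Ta3 replicate 3 the Ta0 median was 0.06, with 86 above 0, the Ta3 median -0.07, with 60 above 0, and the median between the glasses -0.21, with 50 above 0. A common FPKM total shifted the median of all genes to -0.48 on Ta0, -0.09 on Ta3 and 0.33 between the glasses. The lincRNAs' medians were then -0.20, -0.04 and 0.07, so the sign changed with the scaling in all 3 comparisons. Groups that do not overlap were counted too. On Ta0 20 lincRNAs lay wholly above cpTi (13.2% of 152, all genes 6.31%) and 6 wholly below (3.95%, all genes 10.2%). On Ta3 3 lay above (1.97%, all genes 3.47%) and 10 below (6.58%, all genes 8.22%). Over both glasses 1 lay above (0.658%, all genes 1.48%) and 3 below (1.97%, all genes 3.67%). Both glasses share the cpTi libraries, so these counts are not independent of each other.

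Gm32089 (chr13:94289448-94295006, minus strand, GRCm38) was the called lincRNA. It is a model of 1193 bases in 4 exon blocks without a known function, 3591 bases upstream of Scamp1, a secretory carrier membrane protein gene on the same strand. It gave 6.31, 9.81 and 4.32 FPKM on cpTi, 2.40, 1.81 and 2.51 on Ta0 and 2.00, 0.971 and 1.72 on Ta3. All 6 glass libraries lay below all 3 cpTi libraries. The means were 6.81 ± 2.78, 2.24 ± 0.378 and 1.56 ± 0.529 FPKM (SD, n = 3), from 113 to 193 reads per library on cpTi and 20 to 49 on the glasses.

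The log2 fold change of Gm32089 over both glasses was -1.39 ± 0.24 (SE, adjusted p = 0.0406 by limma). For each glass alone it was -1.22 ± 0.27 on Ta0 (adjusted p = 0.188) and -1.57 ± 0.27 on Ta3 (adjusted p = 0.0582). Leaving out any single library other than cpTi replicate 3 raised the adjusted p above 0.05, up to 0.244. The start of the spliced transcript is shown from the GENCODE model, since no RefSeq promoter was given for it.
Gm32089, first 240 bases: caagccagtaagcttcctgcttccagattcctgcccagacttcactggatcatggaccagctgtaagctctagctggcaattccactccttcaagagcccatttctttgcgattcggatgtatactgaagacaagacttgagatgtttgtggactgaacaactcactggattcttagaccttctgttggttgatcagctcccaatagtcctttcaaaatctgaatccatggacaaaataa

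The neighbourhood of Gm32089 did not share its call. Scamp1 gave 15.3 ± 1.07 FPKM on cpTi, 10.8 ± 1.00 on Ta0 and 10.6 ± 1.33 on Ta3, a log2 fold change over both glasses of -0.49 (adjusted p = 0.284, limma). Every glass library of Scamp1 lay below every cpTi library, as for Gm32089. Ap3b1 and Lhfpl2, the next coding genes, had log2 fold changes of -0.18 and 0.11. Gm48102, a lincRNA on the opposite strand that overlaps Gm32089, had -0.11, and reads in the overlap cannot be assigned.

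Gm34643 lies 22520 bases upstream of Acod1, the itaconate-producing enzyme of activated macrophages (chr14:103012908-103024457, plus strand). It gave 2.83, 3.66 and 2.77 FPKM on cpTi, 1.25, 1.34 and 1.497 on Ta0 and 1.47, 1.56 and 0 on Ta3. All glass libraries lay below all cpTi libraries, and Ta3 replicate 3 had no read. The log2 fold change over both glasses was -0.96 ± 0.29 (adjusted p = 0.349, limma), and on Ta0 alone -0.79 ± 0.33 (adjusted p = 0.750). In a fit without Ta3 replicate 3 these were -0.74 (adjusted p = 0.0333, limma) and -0.79 (adjusted p = 0.0467). No other omission of a single library called Gm34643.

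Acod1 gave 84.0, 107 and 78.6 FPKM on cpTi, 7.94, 8.12 and 12.5 on Ta0 and 9.45, 8.87 and 9.17 on Ta3. It was the single called gene among the 115 expressed nearest coding neighbours of the lincRNAs (log2 fold change -3.14 ± 0.18 over both glasses, adjusted p = 0.000769, limma). Across those 115 pairs Pearson's r between the fold changes of lincRNA and neighbour was 0.16 on Ta0, 0.38 on Ta3, 0.10 between the glasses and 0.29 over both. The signs were the same in 52 pairs on Ta0 (45.2%), 72 on Ta3 (62.6%), 56 between the glasses (48.7%) and 69 over both (60%). Among them, the 25 divergent pairs with starts within 1000 bases had r of -0.24, 0.45, -0.23 and 0.13 in that order. Each r is across genes, which are not independent replicates, and the comparisons share the cpTi libraries.

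The promoters of this pair, both with all glass libraries below cpTi, are shown from RefSeq (GRCm38.p6, plus strand), 250 bases before to 50 after the start. They lie at chr14:103012625-103012924 and chr14:103046762-103047061. Capitals mark a match to the AP-1 motif TGANTCA in Gm34643 and to the PU.1 motif AGGAAGT in Acod1.
Gm34643 promoter: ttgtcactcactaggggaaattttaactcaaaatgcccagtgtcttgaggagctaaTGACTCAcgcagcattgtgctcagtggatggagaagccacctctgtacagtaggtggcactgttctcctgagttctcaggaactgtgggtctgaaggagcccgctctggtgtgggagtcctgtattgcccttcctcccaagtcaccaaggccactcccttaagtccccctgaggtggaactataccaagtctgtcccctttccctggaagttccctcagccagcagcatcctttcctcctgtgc
Acod1 promoter: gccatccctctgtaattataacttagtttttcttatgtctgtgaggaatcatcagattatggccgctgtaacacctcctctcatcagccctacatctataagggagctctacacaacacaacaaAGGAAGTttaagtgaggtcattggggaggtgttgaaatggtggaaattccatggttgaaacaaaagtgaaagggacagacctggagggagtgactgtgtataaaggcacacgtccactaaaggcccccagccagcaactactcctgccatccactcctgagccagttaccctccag
Of the 92 lincRNAs with a RefSeq promoter, searched on both strands, 10 held TGANTCA (10.9%, all 27025 promoters 7.93%) and 15 held AGGAAGT (16.3%, all 9.57%). The interferon response element ISRE was in 5 (5.43%, all 3.49%), the cAMP element TGACGTCA in 4 (4.35%, all 1.88%) and the NF-kB motif in 0 (all 0.385%). A match in these letters is a description and not a binding site.

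**Figure D3:**
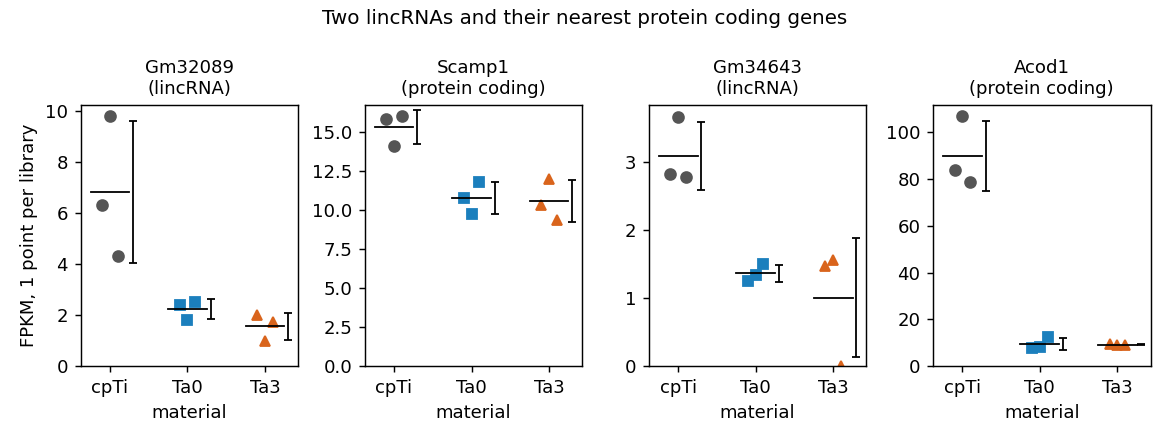
FPKM of Gm32089, Scamp1, Gm34643 and Acod1 by material, 1 point per library, with the mean as a bar and the SD (n = 3) beside it. Each of the 4 genes lies lower on both glasses than on cpTi, Acod1 by the most.

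Other lincRNAs had groups that did not overlap but were not called, and their values follow as a description. On Ta0, Gm38832 near St3gal5 gave 14.9, 7.35 and 13.5 FPKM against 3.91, 5.91 and 2.05 on cpTi, a log2 fold change of 1.40 (adjusted p = 0.750, limma). Gm13391 near Usp6nl gave 18.3, 5.51 and 7.23 against 4.15, 5.09 and 2.12 FPKM, and Gm40787 near Rassf3 gave 4.52, 2.27 and 2.70 against 0, 1.91 and 1.44 FPKM. Below cpTi were Gm26779 near Gm15446 and Gm26809 near Lsm8, with log2 fold changes of -0.66 and -0.40 on Ta0. Gm26779 was a member through its 3 cpTi libraries alone (1.01, 1.65 and 2.24 FPKM), so its lower level on the glasses was built into its choice.

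Gm31045 near Fgfr1 was the single lincRNA wholly above cpTi on both glasses. It reached 1 FPKM in no cpTi library, 2 Ta0 libraries and 1 Ta3 library, so it was included only through the glasses and its place above cpTi was built into its choice. It gave 0.182, 0.197 and 0.0990 FPKM on cpTi, from 3, 3 and 2 reads, and 2.75, 0.781 and 1.06 on Ta0 and 0.998, 0.201 and 2.11 on Ta3. Its log2 fold change was 1.05 for Ta0 (adjusted p = 0.693, limma) and 0.75 for Ta3 (adjusted p = 0.767). On Ta3, Gm20300 near Hint3 gave 1.92, 2.03 and 2.62 FPKM against 1.15, 0.952 and 1.84 on cpTi, and Gm4262, which overlaps Litaf, a lysosomal membrane gene, on the opposite strand, gave 0.899, 1.33 and 1.13 against 0.562, 0.824 and 0.758. Gm4262 too reached 1 FPKM in no cpTi library and was included only through the glasses. Below cpTi on Ta3 were Gm39469 near 2010315B03Rik and Gm12796 near Jak1, a cytokine receptor kinase, with log2 fold changes of -1.37 and -0.99, both with Ta3 replicate 3 at 0. No Ta3 library of Gm12796 reached 1 FPKM.

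Between the glasses 7 lincRNAs lay wholly higher on Ta3 (4.61%) and 6 wholly lower (3.95%), where all genes had 4.1% and 4.87%. Gm28875 near Syne3 gave 7.69, 10.7 and 5.33 FPKM on Ta3 and 1.02, 3.58 and 2.73 on Ta0, a log2 fold change of 1.41 (adjusted p = 0.846, limma). Gm27010, which overlaps Dleu2, and Zfp469, which RefSeq lists as protein coding, had log2 differences of 0.78 and 0.63, and neither reached 1 FPKM in any Ta0 library. On the lower side Gm11496 near Coil had a log2 difference of -1.63, Gm38832 of -1.58, Gm47754 near Ly86 of -1.26 and Gm12796 of -0.80.

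The spread between libraries of one material is given as a description, with no test. At a mean above 10 FPKM, on the log2(FPKM + 1) scale, the median SD within materials was 0.968 for 19 lincRNAs and 0.353 for 3509 protein coding genes. At 2 to 5 FPKM it was 0.569 and 0.281, and below 1 FPKM 0.447 and 0.245. These bands match level and not model length, whose median was 1191 bases for the lincRNAs and 4206 for the protein coding genes. Of the 152, 68 were highest in Ta0 replicate 1 and 36 in Ta3 replicate 3, the libraries whose FPKM were scaled to the fewest reads. The part of that scaling in these counts was not tested. The lowest level was in Ta3 replicate 2 for 55 and in Ta3 replicate 3 for 37. The first principal component of the 152 held 62.3% of their variance, where that of all tested genes held 72% of theirs. On the axis of the 152, Ta0 replicate 1 and Ta3 replicate 3 lay at one end and Ta3 replicate 2 and cpTi replicate 3 at the other.

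**Figure D4:**
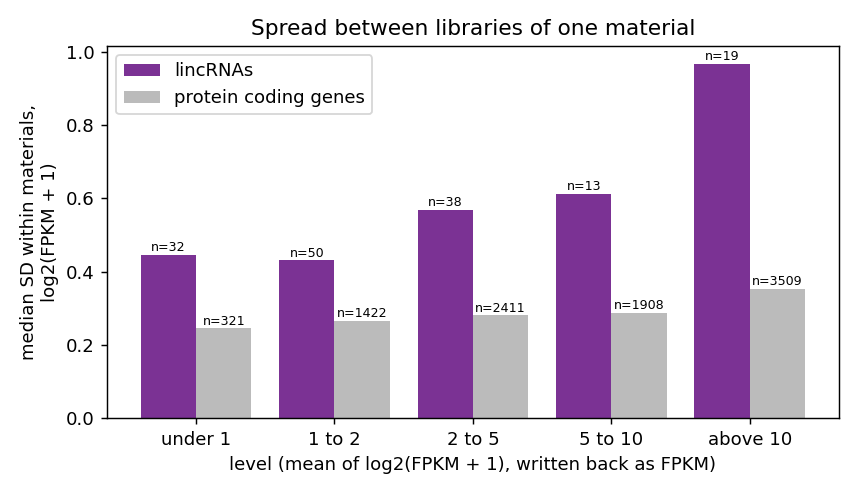
Median SD within materials, on the log2(FPKM + 1) scale, for lincRNAs and protein coding genes in 5 bands of level; n is the number of genes. The lincRNA bar is the higher one in each band, 0.968 against 0.353 above 10 FPKM. The bands match level and not model length, and the lincRNA models are shorter.

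Short and long models are set side by side in the same way. In Ta0 replicate 1 the 76 shorter lincRNAs deviated from their 9-library mean by a median of 0.90 on the log2 scale and the 76 longer ones by 0.27. In Ta3 replicate 2 the medians were -0.60 and -0.35, and in cpTi replicate 3 -0.48 and -0.09. The 447 protein coding genes of the same short lengths moved further, by 1.30 in Ta0 replicate 1 and -1.25 in Ta3 replicate 2, and the 9124 longer ones by -0.04 and 0.10. The part of this in the comparisons was not tested beyond a fit that holds it as a covariate.

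**Figure D5:**
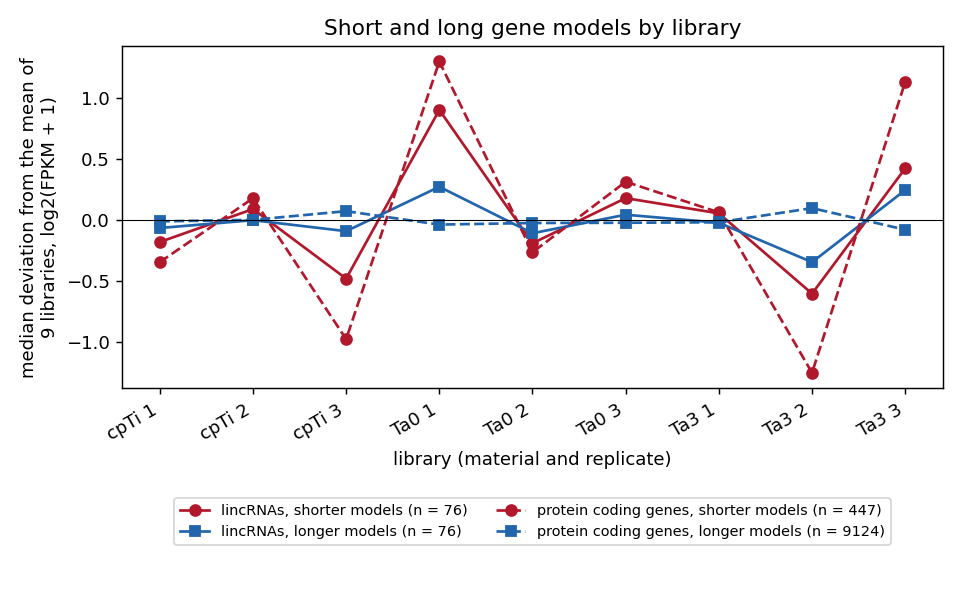
Median deviation from the 9-library mean on the log2(FPKM + 1) scale, by library, for lincRNAs and protein coding genes split at a model length of 1191 bases; lines only link the values of one gene class. Short models of both classes are high in Ta0 replicate 1 (0.90 and 1.30) and low in Ta3 replicate 2 (-0.60 and -1.25).

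At the edge of the rule, the third highest level was 1.01 FPKM for 2210417A02Rik and Gm26779 and 1.04 for Gm26610, just inside. Just outside were Gm47705, Mir17hg, the host of the miR-17 family, and Gm13710, at 0.998, 0.997 and 0.994 FPKM.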

How the data were processed

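Per the labels' protocols, polyA RNA of 9 samples was prepared with the NEBNext Ultra kit. The authors deposited FPKM per gene. Per the submitters' processing notes the build was GRCm38 (mm10) and the tools were DESeq2 1.20.0, featureCounts 1.5.0-p3, HISAT2 2.0.5, fastp and CASAVA 1.8, with no roles given. Reads were rebuilt from the FPKM, and 100% of non-zero values came out whole within 0.05 reads. Values were taken as log2(FPKM + 1), which shrinks the fold changes of genes with low levels. The model was limma (3.58.1, under R 4.3.3) with 3 group means, all 9 libraries and a mean-variance trend. P-values are two-sided and adjusted by Benjamini-Hochberg over all 10858 tested genes, called under 0.05. Genes named were those called, the 12 with the highest median, the 4 largest non-overlapping differences per comparison and direction, listed genes and those at the threshold. Other names were chosen after their values were seen. The members and lists were chosen with earlier results of these data known. Overlaps and names came from GENCODE M21 and RefSeq tables of the same build, with all 152 lincRNAs found in GENCODE.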

Additional observations from a re-analysis of the deposited data

Results flagged for a closer look

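Gm20707, a lincRNA model that overlaps the zinc finger gene Zfp984 on the same strand, lay above cpTi in every Ta0 library and below it in every Ta3 library. It gave 3.44, 2.96 and 2.94 FPKM on cpTi, 3.46, 4.17 and 4.11 on Ta0 and 1.85, 2.62 and 2.52 on Ta3, with a Ta3 mean of 2.33 FPKM. The difference between the glasses was -0.57 ± 0.15 on the log2 scale (adjusted p = 0.846, limma), and against cpTi it was 0.26 on Ta0 and -0.31 on Ta3. Both differences rest on the same cpTi libraries, and reads of Zfp984 cannot be told apart from its own.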

How the results depend on the processing

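The number of lincRNAs called over both glasses, 1, went to 0 with a pseudocount of 0.1, without a filter, at a common FPKM total, in voom on rebuilt reads (chosen after seeing the data) and without both Ta0 replicate 1 and Ta3 replicate 3. With the length slope as a covariate 3 of the 152 were called over both glasses (AW112010, Gm32089 and Gm36161, all lower). On Ta0 3 were called and on Ta3 6, of which 1 was higher. Among all 10858 tested genes that fit called 144 higher and 332 lower over both glasses. It called 56 higher and 190 lower on Ta0, and 198 and 385 on Ta3. In each of these comparisons a smaller share was called of the 152 than of all genes. Why that fit called more lincRNAs than the main fit was not tested. Leaving out 1 library gave 0 to 1 over both glasses and 0 to 1 on Ta0. Among 27 fold changes of named lincRNAs, chosen because their groups did not overlap, no direction reversed. For such groups, leaving out libraries or changing the pseudocount, filter or block could not have reversed a direction. Only the common total, the length slope and voom could. Of the 27, 1 was called: Gm32089 over both glasses. That call was lost in 14 of its alternatives, with log2 fold changes over all of them from -1.13 to -1.81. The uncalled fold changes passed the threshold in 5 cases, all of Gm32089 on single glasses or of Gm34643. The replicate block gave 0 called lincRNAs in each comparison. Replicate numbers did not pair the libraries: correlations of same-numbered libraries ran from -0.82 to 0.85, and 3 of 9 libraries correlated best with their own number. Among all genes the calls on Ta0 ran from 0 higher and 4 lower (block) to 56 and 190 (length slope), on Ta3 from 0 and 4 to 198 and 385, and over both glasses from 0 and 11 to 144 and 332. A common total gave 0 higher and 11 lower on Ta0 where the deposited scaling gave 5 and 41. Planned fits with other count tools were not run, since the deposited unit is FPKM. The 26 lincRNAs at 0 in Ta3 replicate 3 had a median of 6.33 scaled mean reads in the other 8 libraries. The range was 1.71 to 45.8, highest for Gm34643, and why these were at 0 was not tested.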

Other observations

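AI427809, which RefSeq now names Mexis and which in mouse macrophages promotes expression of the cholesterol exporter Abca1, was chosen after its values were seen. Its mean level was 1.96 ± 0.638 FPKM on cpTi, 0.990 ± 0.468 on Ta0 and 0.861 ± 0.160 on Ta3 (SD, n = 3). The log2 fold change over both glasses was -0.61 (adjusted p = 0.467, limma). 1700020I14Rik, known as Oip5os1, the transcript that in mice triggers decay of the microRNA miR-7, was steady at 10.3 ± 1.30, 10.2 ± 1.65 and 8.86 ± 0.990 FPKM.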
